A study of Mus musculus with 96 samples.

Results

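The genes described here are 38 type I interferon response genes, read in bulk mRNA-seq of mouse brain after traumatic brain injury (TBI). The list was drawn up by gene symbol and all 38 symbols were found among the 32594 genes of both count tables. Male C57BL/6 mice aged 8 to 10 weeks received a controlled cortical impact (CCI) through a craniectomy over the left hemisphere, or a sham procedure of anaesthesia and scalp incision with no craniectomy, so that craniectomy and impact cannot be told apart. Each was given candesartan (CD), a blocker of the angiotensin II type 1 receptor, at 0.1 mg/kg/day, or vehicle (VH), which makes the vehicle groups Sham + VH and TBI + VH and the candesartan groups Sham + CD and TBI + CD. For the 3 days post-injury (dpi) groups both agents were injected intraperitoneally at 6, 24 and 48 h, whereas for the 29 dpi groups a 6 h injection was followed by an osmotic pump placed at 24 h, so that time and route of delivery cannot be told apart. The ipsilateral hippocampus, thalamus and hypothalamus were each sequenced in 4 libraries per group and time, 96 libraries in all.

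Type I interferons bind the receptor IFNAR1/IFNAR2, whose kinases phosphorylate STAT proteins, STAT2 among them. With IRF9 these form the complex ISGF3, which binds the interferon-stimulated response element in the promoters of its target genes. The targets include sensors of viral RNA, effectors that block virus entry or replication, the ubiquitin-like modifier ISG15 with its enzymes, and IRF7, a factor that increases interferon production. In the brain microglia, astrocytes, endothelium and neurons can all respond, and some of these genes also respond to interferon gamma.

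The core of the interferon-stimulated response element was looked for as GAAA, any 2 bases and GAAA, on either strand, in the window from 250 bases before to 50 after the start of each gene in RefSeq promoters of GRCm38.p6. Of the 38 genes 28 had a window, and 14 of these (50%) held the letters, against 1079 of 27025 gene symbols (3.99%). The stretches with a match in 10 of the 14 genes, chosen after their values were seen, are read here on the strand of the gene with the matches in capitals. They are given so that the layout of the matches can be compared between genes with different values after injury.
Isg15: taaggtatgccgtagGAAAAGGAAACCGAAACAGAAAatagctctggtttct
Ifit1: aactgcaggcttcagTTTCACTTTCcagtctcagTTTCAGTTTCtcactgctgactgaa
Ifit3: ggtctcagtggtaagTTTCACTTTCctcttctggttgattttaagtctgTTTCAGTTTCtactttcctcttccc
Rsad2: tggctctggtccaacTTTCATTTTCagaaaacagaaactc
Bst2: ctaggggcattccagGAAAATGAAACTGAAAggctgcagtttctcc
Trim30a: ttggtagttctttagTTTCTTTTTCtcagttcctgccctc
Gbp2: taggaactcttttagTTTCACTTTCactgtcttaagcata
Gbp3: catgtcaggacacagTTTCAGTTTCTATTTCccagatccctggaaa
Cxcl10: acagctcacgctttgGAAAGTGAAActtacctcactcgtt
Stat2: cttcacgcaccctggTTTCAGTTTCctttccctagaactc

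The printed stretches lie at chr4:156200860-156200911 (minus strand) for Isg15, chr19:34640770-34640828 (plus) for Ifit1, chr19:34583358-34583431 (plus) for Ifit3 and chr12:26456548-26456587 (minus) for Rsad2. Those of Bst2, Trim30a and Gbp2 lie at chr8:71537572-71537617 (minus), chr7:104465205-104465244 (minus) and chr3:142620589-142620628 (plus). Gbp3, Cxcl10 and Stat2 have theirs at chr3:142559984-142560029 (plus), chr5:92349078-92349117 (minus) and chr10:128270261-128270300 (plus). Isg15 held 3 overlapping matches, and Ifit1, Ifit3, Bst2 and Gbp3 held 2 each. The matches of Ifitm3, which held 2, and of Ddx58, Ifih1 and Eif2ak2, which held 1 each, are not printed. Irf7, Ifit2 and Cmpk2 had a window with no match, while Usp18, Zbp1, Mx1, Mx2 and Ifi27l2a were among the 10 genes without a window. In TBI + VH against Sham + VH in the hippocampus at 3 dpi, 7 of the 14 genes with a match and 9 of the 14 without one were called higher, and in TBI + CD against Sham + CD the counts were 13 and 13, beside 8.99% and 14.4% of all genes.

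Depth ran from 17150610 to 31253784 counts per library at 3 dpi and from 6663629 to 38589791 at 29 dpi. Markers of each region were highest in the libraries of that region, although hypothalamic markers summed to between 13.1 and 692.2 CPM, the unit of library-size-scaled counts used throughout, in thalamic libraries at 3 dpi. Choroid plexus epithelium, the tissue that makes cerebrospinal fluid, varied between libraries of the hippocampus and of the thalamus. In the hippocampus its 12 markers summed to 6755, 4412, 213 and 4719 CPM in the 4 Sham + VH libraries at 3 dpi, to between 28.1 and 172.7 in TBI + VH, while with candesartan they summed to between 65.1 and 123.2 in Sham + CD and to 2733, 48.2, 27.2 and 176.1 in TBI + CD. All 12 markers were called lower there in TBI + VH against Sham + VH, so that choroid plexus content and injury cannot be fully told apart in that comparison. In the thalamus at 3 dpi the markers summed to 1180, 90.8, 3528 and 55.3 CPM in Sham + VH. They reached 733.8 CPM in Sham + CD and at most 100 in any injured library. At 29 dpi thalamic Sham + VH replicates 3 and 4 reached 2453 and 3975 CPM.

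At 3 dpi the hippocampus of injured mice held more RNA of most of the interferon response genes than that of sham mice, with vehicle and with candesartan. A gene was called where the Benjamini-Hochberg adjusted p of edgeR's quasi-likelihood test over all genes was under 0.05 and the absolute log2 fold change above 0.32. In TBI + VH against Sham + VH 23 of 38 genes were called higher and 0 lower, beside 8.99% of the 16756 genes tested called higher and 1.72% lower. That count moved when single libraries were left out and when choroid plexus level was a covariate, as given below. The median log2 fold change was 0.93 over the 38 genes and -0.01 over all genes tested. All 38 fold changes were positive, and for 27 genes every TBI + VH library lay above every Sham + VH library, as it did for 11.6% of all genes. In these bulk samples a change in the number of cells of a type and a change in RNA per cell cannot be told apart.

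**Figure D1:**
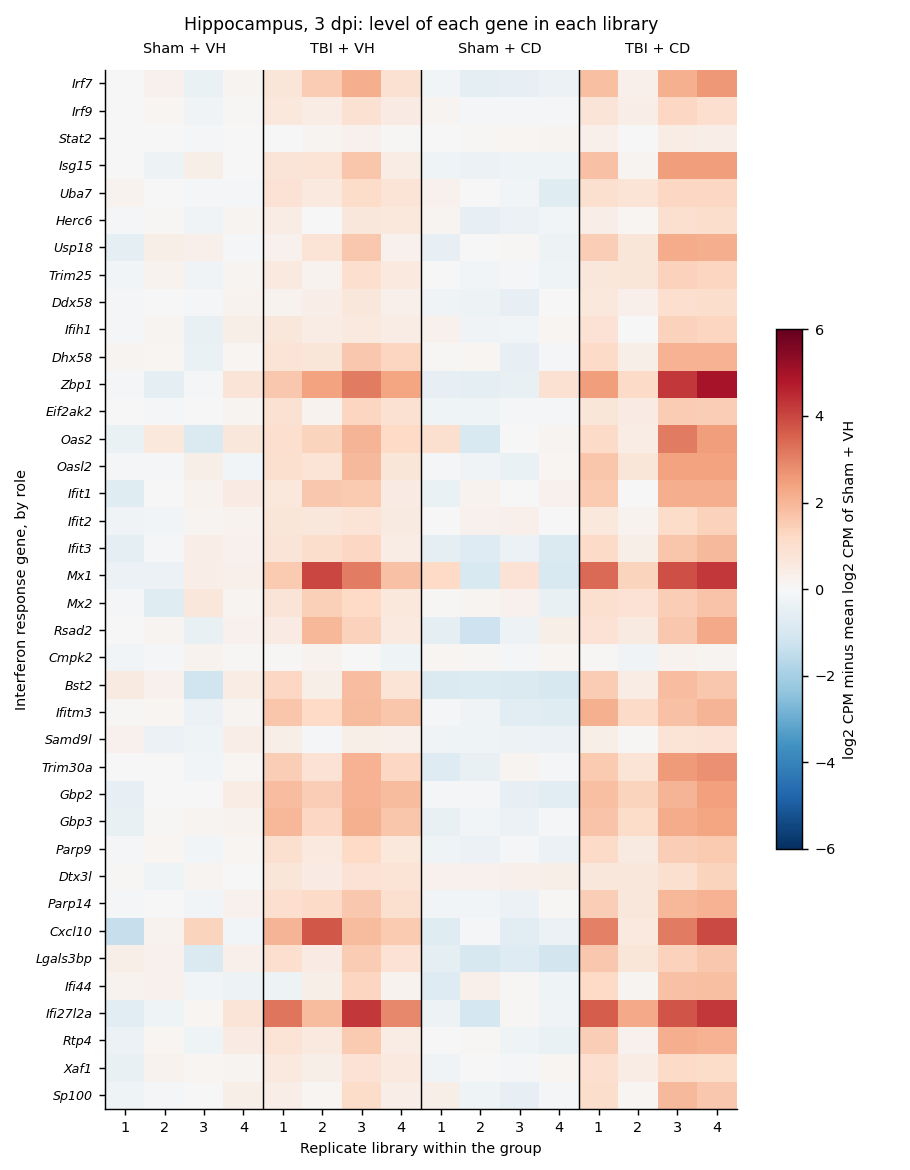
Level of each of the 38 genes (rows, ordered by role) in each of the 16 hippocampal libraries at 3 dpi (columns, 4 per group), as log2 CPM minus the mean log2 CPM of the 4 Sham + VH libraries. For most genes TBI + VH replicate 3 and TBI + CD replicates 3 and 4 are the reddest of their groups, TBI + CD replicate 2 is pale, and Stat2 and Cmpk2 are near white in every library.

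Ifi27l2a, a small interferon-induced protein, averaged over 1 CPM through its injured libraries alone. It was read at 0.239, 0.333, 0.451 and 0.768 CPM in Sham + VH and at 4.58, 1.76, 9.35 and 3.57 CPM in TBI + VH. The groups did not overlap, and the fold was 10.6 (log2 fold change 3.41 ± 0.52 SE, n = 4 per group, adjusted p = 0.000182 by edgeR).

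The guanylate-binding proteins, large GTPases that act on vacuoles holding pathogens, were both called. Gbp2 stood at 2.07, 2.87, 2.99 and 4.02 CPM in Sham + VH and at 10.7, 8.31, 12.6 and 11.2 CPM in TBI + VH. Gbp3 stood at 2.35, 3.45, 3.73 and 3.84 CPM in Sham + VH and at 13.5, 7.8, 14.5 and 10.8 CPM in TBI + VH. For both genes the lowest injured library was above the highest sham library by a wide margin, with log2 fold changes of 1.84 ± 0.23 (adjusted p = 2.3e-05) and 1.80 ± 0.25 (adjusted p = 6.45e-05).

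Ifitm3, a membrane protein that hinders the fusion of viruses with cells, was read at 8.26, 8.4, 6.11 and 8.93 CPM in Sham + VH and at 25.1, 18.1, 29.4 and 25.1 CPM in TBI + VH. Its log2 fold change was 1.63 ± 0.20, a fold of 3.09, and its adjusted p of 1.69e-05 was the lowest of the 38. The other genes called in the list of antiviral effectors were Trim30a, Mx1 and Mx2. Trim30a, a TRIM protein that restrains Toll-like receptor signalling, went from 2.23, 2.16, 1.97 and 2.41 CPM to 6.2, 4.13, 9.61 and 5.34 CPM (log2 fold change 1.53 ± 0.35, adjusted p = 0.00622). Mx1, the gene of a GTPase and chosen here after its values were seen, had 8 counts over the 4 Sham + VH libraries and 104 over the TBI + VH libraries. Whether these mice make a working protein from it was not tested.

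Among the transcription factors Irf7 and Irf9 were called and Stat2 was not. Irf7 was read at 1.44, 1.79, 1.11 and 1.65 CPM in Sham + VH and at 2.5, 4.33, 6.86 and 2.87 CPM in TBI + VH, a fold of 2.77 (log2 fold change 1.47 ± 0.39, adjusted p = 0.0168). Every injured library was above every sham library, and replicate 3 was the highest. Irf9, the DNA-binding part of ISGF3, rose by 0.63 ± 0.15 on the log2 scale (adjusted p = 0.0072). Stat2 lay between 30.9 and 38.6 CPM in the libraries of both groups, with a log2 fold change of 0.14 and a 95% interval from -0.02 to 0.29.

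In the ISG15 system Uba7, the activating enzyme, and Trim25, a ligase, were called, and Isg15, Usp18 and Herc6 were not. Isg15 had 0.718, 0.582, 0.943 and 0.732 CPM in Sham + VH and 1.33, 1.36, 2.53 and 1.03 CPM in TBI + VH. Its groups did not overlap, yet its log2 fold change of 1.07 ± 0.42 had an adjusted p of 0.11. Usp18, the protease that removes ISG15 and dampens the receptor, had 0.399, 0.79, 0.779 and 0.549 CPM in Sham + VH and 0.749, 1.16, 2.02 and 0.737 CPM in TBI + VH, which overlapped (log2 fold change 0.90 ± 0.39, adjusted p = 0.155).

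Of 7 RNA sensors and sensor-linked enzymes 4 were called, namely Dhx58, Zbp1, Eif2ak2 and Oasl2, with log2 fold changes from 0.90 (Eif2ak2, the kinase PKR) to 3.01 (Zbp1, a sensor of Z-form nucleic acid). Ddx58 (RIG-I), Ifih1 (MDA5) and Oas2 had log2 fold changes of 0.40, 0.52 and 1.49 and were not called. Of the IFIT family, proteins that bind viral RNA, Ifit2 and Ifit3 were called. Ifit3 was read at 3.27, 4.41, 6.4 and 5.71 CPM in Sham + VH and at 8.16, 9.97, 11.5 and 6.63 CPM in TBI + VH (log2 fold change 0.87 ± 0.28, adjusted p = 0.044), with the lowest injured library just above the highest sham library. Ifit1 had a log2 fold change of 1.12 ± 0.41 and an adjusted p of 0.0831. Rsad2 (viperin), which makes an antiviral nucleotide, had 0.678, 0.79, 0.492 and 0.841 CPM in Sham + VH and 0.999, 3.02, 1.91 and 1.07 CPM in TBI + VH, without overlap and not called (1.29 ± 0.44, adjusted p = 0.0612).

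Parp9, Dtx3l and Parp14, which modify proteins by ADP-ribose and ubiquitin and act in interferon signalling, were all called, with log2 fold changes of 0.87, 0.73 and 1.22. Parp9 and Dtx3l share 458 exonic bases on opposite strands and the strand setting of the counting was not given in the sources used here, so their values may not be independent. Of the secreted proteins, Lgals3bp rose by 0.94 ± 0.25 on the log2 scale (adjusted p = 0.015). Cxcl10, a chemokine that attracts T cells, had 0, 0.166, 0.451 and 0.11 CPM in Sham + VH and 0.791, 2.77, 0.722 and 0.553 CPM in TBI + VH, with replicate 2 far above the others (log2 fold change 2.67 ± 0.79, adjusted p = 0.0299).

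Bst2 (tetherin), which holds budding viruses at the cell surface, had 5.11, 4.24, 1.48 and 4.79 CPM in Sham + VH and 8.45, 4.58, 13.1 and 6.26 CPM in TBI + VH, with overlap (log2 fold change 1.06 ± 0.35, adjusted p = 0.0516). The Sham + VH library with the low Bst2 value, replicate 3, was also the one with the low choroid plexus sum of 213 CPM, and its Lgals3bp level was 13.4 CPM against 29.5 to 31.9 in the other Sham + VH libraries. Cmpk2, a mitochondrial nucleotide kinase, had a log2 fold change of 0.02 with a 95% interval from -0.21 to 0.24. Its libraries spanned 17.1 to 23.7 CPM in all 4 groups.

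The count in TBI + VH against Sham + VH moved with single libraries and with the choroid plexus term. Without TBI + VH replicate 3 it was 13 and without Sham + VH replicate 1 it was 15, and Irf7 was among the genes no longer called in the first case. With the choroid plexus level as a covariate 5 genes remained called, Ifitm3, Gbp2, Gbp3, Lgals3bp and Ifi27l2a. The share of all genes called in these fits was not counted. TBI + VH against Sham + CD, an alternative chosen after seeing the data in which treatment also differs, compares groups with choroid plexus sums of 28.1 to 172.7 and 65.1 to 123.2 CPM. It called 31 of 38 genes higher, beside 13.3% of all genes, among them Isg15 (1.42 ± 0.44, adjusted p = 0.0235) and Bst2 (2.12 ± 0.38, adjusted p = 0.000517).

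In TBI + CD against Sham + CD, a comparison that shares no library with TBI + VH against Sham + VH, 36 of 38 genes were called higher and 0 lower, beside 14.4% of all genes called higher, 5.67% lower and 20.1% in either direction. Their median log2 fold change was 1.80 against -0.00 over all genes, and for 29 genes the groups did not overlap, beside 17.8% of all genes. Stat2 (0.19, adjusted p = 0.0554) and Cmpk2 (0.01, 95% interval from -0.22 to 0.23) were the exceptions. The count was 36 with the choroid plexus covariate and with each library left out in turn. TBI + CD against Sham + VH, which shares its sham libraries with the vehicle comparison, gave 35 genes higher and 0 lower beside 10.3% of all genes called higher, with Samd9l, Stat2 and Cmpk2 not called.

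**Figure D2:**
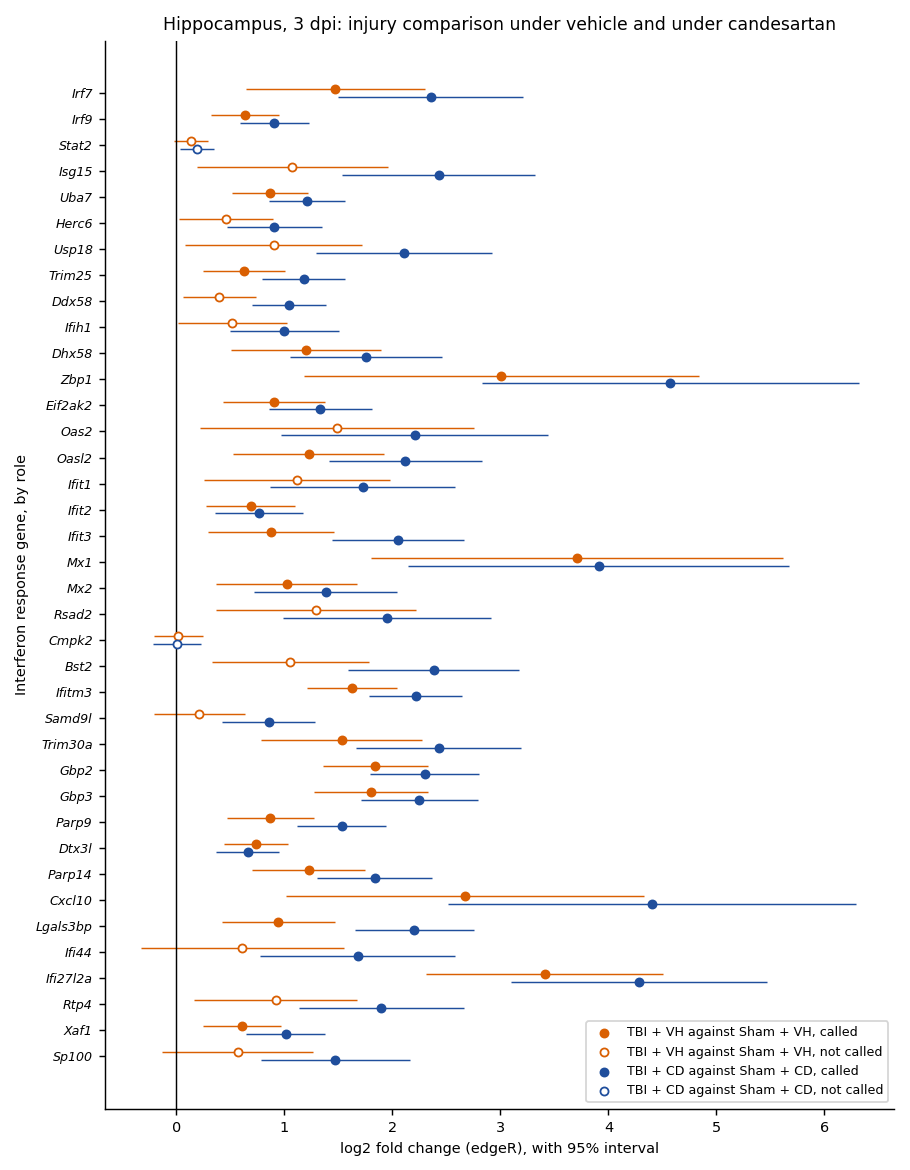
Log2 fold change of each of the 38 genes in the hippocampus at 3 dpi with its 95% interval, for TBI + VH against Sham + VH (orange) and TBI + CD against Sham + CD (blue); filled points were called (23 and 36 genes). Cmpk2 and Stat2 lie near 0 in both comparisons, and Ifi27l2a, Zbp1, Mx1 and Cxcl10 lie farthest to the right with wide intervals.

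Zbp1 averaged over 1 CPM in both comparisons of TBI + CD through the injured libraries alone. It was read at 0.0798, 0.0416, 0.082 and 0.219 CPM in Sham + VH, at 0.0456, 0.0401, 0.0496 and 0.256 CPM in Sham + CD and at 0.932, 0.316, 3.29 and 5.33 CPM in TBI + CD. The log2 fold change was 4.45 ± 0.80 against Sham + VH and 4.57 ± 0.83 against Sham + CD, from 11 and 9 counts in the sham groups. In TBI + VH it was read at 0.458, 0.856, 1.44 and 0.847 CPM.

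Isg15 in TBI + CD was read at 2.7, 0.828, 4.57 and 4.57 CPM, against 0.593, 0.561, 0.595 and 0.596 CPM in Sham + CD (log2 fold change 2.43 ± 0.42, adjusted p = 0.000327). Usp18 was read at 1.86, 1.06, 3.14 and 3.09 CPM, against 0.411, 0.601, 0.644 and 0.469 CPM (2.10 ± 0.39, adjusted p = 0.000512). In both genes replicate 2 was the lowest TBI + CD library and replicates 3 and 4 were close together at the top. All 5 genes of the ISG15 system were called in both comparisons of TBI + CD.

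Irf7 stood at 5.27, 1.81, 6.65 and 9.42 CPM in TBI + CD and at 1.32, 1, 1.04 and 1.15 CPM in Sham + CD, a fold of 5.11 (log2 fold change 2.35 ± 0.41, adjusted p = 0.000305). Ifit3 stood at 10.9, 6.19, 15.3 and 18.5 CPM in TBI + CD and at 3.24, 2.73, 3.72 and 2.6 CPM in Sham + CD (2.05 ± 0.29, adjusted p = 4.72e-05). Neither gene overlapped between TBI + CD and Sham + CD, but against Sham + VH, whose highest library reached 6.4 CPM, Ifit3 replicate 2 fell within the sham range.

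Trim30a was read at 6.76, 3.94, 13.3 and 15 CPM in TBI + CD and at 1.23, 1.56, 2.43 and 2.05 CPM in Sham + CD (2.43 ± 0.36, adjusted p = 8.13e-05). Ifi27l2a was read at 6.15, 2.33, 6.8 and 9.3 CPM in TBI + CD and at 0.319, 0.16, 0.446 and 0.341 CPM in Sham + CD (4.28 ± 0.56, adjusted p = 2.32e-05). Bst2 was read at 10.3, 4.89, 12.8 and 11 CPM in TBI + CD and at 1.87, 1.96, 1.88 and 1.75 CPM in Sham + CD (2.38 ± 0.38, adjusted p = 0.000136). For all 3 genes every sham value was below every injured one, and the Bst2 sham values lay closest together.

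Gbp2 reached 10.5, 7.38, 12.2 and 16.5 CPM in TBI + CD against 2.74, 2.81, 2.03 and 1.87 CPM in Sham + CD (2.30 ± 0.24, adjusted p = 2e-06). Cxcl10 reached 1.63, 0.237, 1.79 and 3.29 CPM against 0.0456, 0.12, 0.0496 and 0.0852 CPM (4.40 ± 0.89, adjusted p = 0.00115), from 7 counts in all in Sham + CD. The RNA sensors were all called, 7 of 7, with Zbp1 the highest and Ifih1 the lowest.

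**Figure D3:**
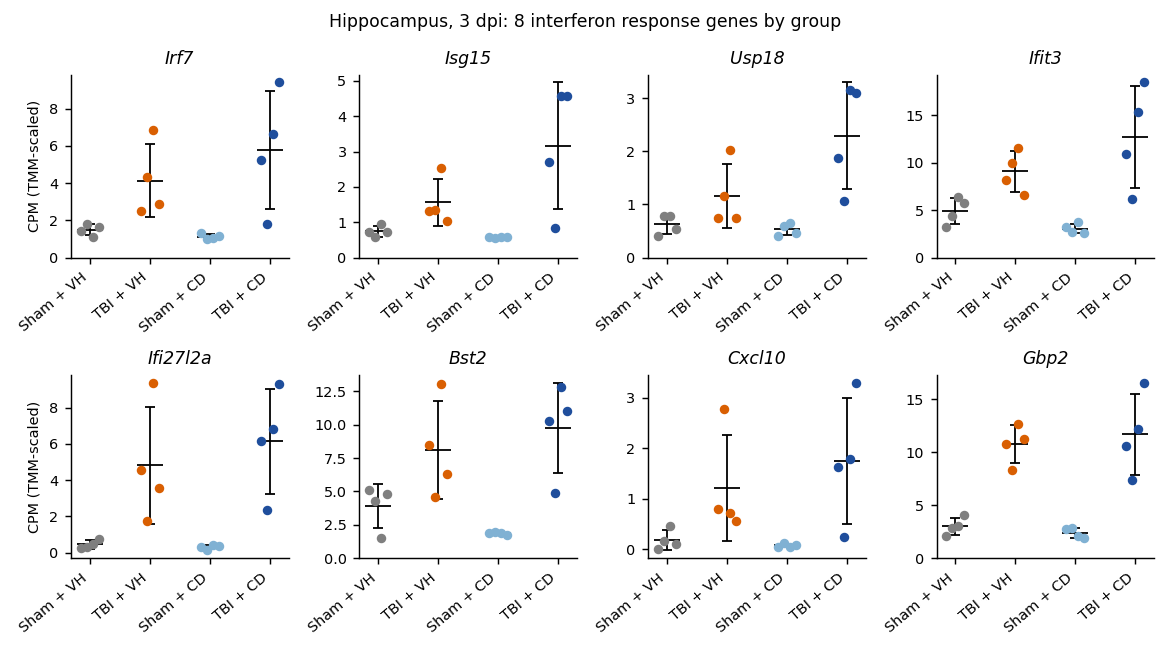
CPM of 8 genes in each hippocampal library at 3 dpi (points) by group, with the mean (dash) and SD (bars) of 4 libraries. TBI + CD replicate 2 is the lowest of its group in all 8 panels, and Sham + CD libraries lie close together, as for Bst2 at 1.75 to 1.96 CPM.

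Injured libraries differed among themselves for the genes as a set. The mean log2 CPM over the 38 genes was 1.23 ± 0.16 (SD, n = 4) in Sham + VH and 2.29 ± 0.29 in TBI + VH, and with candesartan 1.03 ± 0.056 in Sham + CD and 2.67 ± 0.65 in TBI + CD. Within TBI + CD it ran from 1.80 to 3.22. Of the 38 genes 36 were lowest in TBI + CD replicate 2, as were 29.43% of all genes, while 21 were highest in replicate 4 and 15 in replicate 3, as were 29.28% and 28.1% of all genes. Within TBI + VH 31 genes were highest in replicate 3, as were 23.72% of all genes, and 6 were highest in replicate 2, beside 24.7% of all genes, which were Ifit1, Mx1, Mx2, Rsad2, Cmpk2 and Cxcl10. Microglia markers summed to 808.9, 776.4, 1123 and 1077 CPM in TBI + CD and to 1027, 664.9, 1037 and 811.9 CPM in TBI + VH. Markers of infiltrating and border macrophages summed to 14.3, 12.5, 33.4 and 28.5 CPM in TBI + CD and to 21.2, 9.57, 21.5 and 14.4 CPM in TBI + VH. Both sums were lowest in replicate 2 and highest in replicate 3 of each group.

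The comparison of TBI + CD with TBI + VH asks whether candesartan altered these genes after injury. The test by edgeR called 0 of 38 genes, and 0 of all genes (background 0%). DESeq2 also called 0, and 10 genes had an unadjusted p under 0.05, all higher in TBI + CD, beside 4.37% of all genes in either direction. The median log2 fold change was 0.38 over the 38 genes and 0.00 over all genes. For Isg15 the log2 fold change was 1.01 with a 95% interval from 0.22 to 1.80, for Usp18 0.97 with an interval from 0.23 to 1.70, and for Irf7 0.48 with an interval from -0.27 to 1.23. All 38 adjusted p were 0.999. The intervals for Gbp2 (0.12, from -0.33 to 0.56) and Ifitm3 (0.17, from -0.21 to 0.56) left room for changes of up to 0.56 on the log2 scale.

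That more genes were called with candesartan than with vehicle is not itself a difference, and the interaction of injury with candesartan, which tests it, was called for 0 of 38 genes and 0 of all genes (background 0%) by edgeR, and for 0 by DESeq2. Of the 38 genes 9 had an unadjusted p under 0.05, all with a larger injury difference under candesartan, beside 13.1% of all genes in either direction. Lgals3bp had the lowest adjusted p, 0.124, with an interaction of 1.26 (95% interval from 0.51 to 2.01), and Ifit3 and Bst2 followed in size of evidence with 1.18 (adjusted p = 0.198) and, after Ddx58 at 0.65 (adjusted p = 0.217), 1.33 (adjusted p = 0.261). For Lgals3bp, Ifit3 and Bst2 the Sham + CD libraries were also low.

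In Sham + CD against Sham + VH 0 of 38 genes were called by edgeR and 0 by DESeq2, beside 0.0836% of all genes called higher and 1.41% lower. An unadjusted p under 0.05 was found for 2511 of the 16756 genes tested and for 3 of the 38, all lower in Sham + CD, Lgals3bp (-0.91, adjusted p = 0.0941), Bst2 (-1.07, adjusted p = 0.19) and Ifit3 (-0.69, adjusted p = 0.279). The low Sham + CD values of Lgals3bp, 17.3, 12.7, 14.8 and 11.7 CPM, stood beside the 13.4 CPM of Sham + VH replicate 3, and all these libraries had choroid plexus sums of at most 213 CPM. Without Sham + VH replicate 3, Bst2 and Lgals3bp were called.

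Upstream of these genes the interferon transcripts themselves were at or near 0. Of 11 type I interferon genes in the tables, 4 had no count in any of the 96 libraries, and the other 7 together with them summed to 38 counts over all libraries, with a highest count of 2 in any library. A count of 0 allows up to 3 counts in a library. For the hippocampus at 3 dpi, Ifnb1 had 0 counts in all 16 libraries, and Ifng, the gene of interferon gamma, reached 1 count at most. In the hypothalamus Ifng summed to 45 counts over 16 libraries at 3 dpi, with at most 6 in a library. At 29 dpi it summed to 40 there, with at most 9.

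Ifnar2, a chain of the type I receptor, was read at 17.7, 19.5, 16 and 18.1 CPM in Sham + VH and at 25.5, 18.9, 27.1 and 20.9 CPM in TBI + VH (log2 fold change 0.37 ± 0.11, adjusted p = 0.0241). In Sham + CD it was at 13.3, 15.6, 14.8 and 15.7 CPM and in TBI + CD at 23.4, 20.2, 25 and 25 CPM (0.65 ± 0.11). Ifnar1 was not called in either comparison. Ifngr1, of the interferon gamma receptor, was at 14, 12.4, 13.1 and 13.1 CPM in Sham + VH and at 24.7, 19.3, 22.7 and 22.1 CPM in TBI + VH (0.76 ± 0.09), and at 12.1, 12.1, 12.7 and 10.6 CPM in Sham + CD and 22.4, 22, 25.1 and 27.8 CPM in TBI + CD (1.03 ± 0.09).

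In the list of JAK-STAT genes and their inhibitors 3 of 10 were called higher in TBI + VH against Sham + VH, 4 of 10 in TBI + CD against Sham + VH and 5 of 10 in TBI + CD against Sham + CD, beside 8.99%, 10.3% and 14.4% of all genes.

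Stat3, which mainly serves cytokines such as interleukin-6, was called in all injury comparisons. It was read at 40.2, 46.6, 44.7 and 47.1 CPM in Sham + VH and at 97.5, 74, 102 and 90.4 CPM in TBI + VH, and with candesartan at 45.7, 44.9, 43.6 and 48.3 CPM in Sham + CD and at 95.9, 81.6, 95.5 and 98.9 CPM in TBI + CD, with log2 fold changes of 1.03 under vehicle and 1.03 under candesartan. Its inhibitor Socs3 was read at 1.4, 1.37, 0.943 and 1.68 CPM in Sham + VH and at 14.4, 6.59, 16 and 9.1 CPM in TBI + VH, and with candesartan at 1.28, 0.521, 1.19 and 0.724 CPM in Sham + CD and at 13.5, 7.41, 21.5 and 14 CPM in TBI + CD. The log2 fold changes of Socs3 were 3.09 ± 0.35 and 3.94 ± 0.37.

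Ptpn6, the phosphatase SHP-1, was at 4.23, 3.7, 3.4 and 3.77 CPM in Sham + VH and at 16.3, 8.46, 14.2 and 12.9 CPM in TBI + VH, and with candesartan at 3.38, 2.29, 2.83 and 4 CPM in Sham + CD and at 12.1, 9.94, 18.4 and 16.8 CPM in TBI + CD (folds of 3.44 under vehicle and 4.58 under candesartan). Socs1, an inhibitor of interferon signalling, was called in TBI + CD against Sham + CD (1.05 ± 0.35, adjusted p = 0.027), from 0.411, 0.401, 0.297 and 0.128 CPM in Sham + CD to 0.652, 0.434, 0.804 and 0.681 CPM in TBI + CD. In Sham + VH it was at 0.399, 0.707, 0.328 and 0.439 CPM and in TBI + VH at 0.708, 0.604, 0.795 and 0.479 CPM.

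Of 15 tested genes that sense nucleic acid upstream of interferon, 7 were called higher in TBI + VH against Sham + VH, 10 in TBI + CD against Sham + VH and 9 in TBI + CD against Sham + CD, beside 8.99%, 10.3% and 14.4% of all genes. Tmem173 (STING), the adaptor for cytosolic DNA, rose by 1.37 ± 0.14 under vehicle and 1.59 ± 0.15 under candesartan on the log2 scale. Tlr7, the endosomal receptor for single-stranded RNA, rose by 1.98 ± 0.25 and 2.16 ± 0.25, and Irf5, a factor downstream of it, by 1.31 ± 0.15 and 1.52 ± 0.15. Tlr9, Ticam1, Myd88 and Ikbke were the others called under vehicle. Mavs, the adaptor of RIG-I, had a log2 fold change of 0.33 (adjusted p = 0.0614) under vehicle and rose by 0.85 ± 0.11 in TBI + CD against Sham + CD.

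Of 50 further interferon-stimulated genes tested, 22 were called higher and 1 lower in TBI + VH against Sham + VH, and 38 and 0 in TBI + CD against Sham + CD. Of all genes 8.99% and 1.72% were called higher and lower in the former comparison and 14.4% and 5.67% in the latter. The median log2 fold changes of the list were 0.74 and 1.35, against -0.01 and -0.00 over all genes. Ifi204, a DNA sensor of the PYHIN family, rose by 3.52 and 5.44, Irf8, a factor that microglia also use, by 1.85 under vehicle, and Psmb8, of the immunoproteasome, by 1.84 under vehicle. Tgtp1, an immunity-related GTPase, was the gene called lower (-2.09 ± 0.53, adjusted p = 0.012). These examples were chosen after their values were seen.

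Markers of microglia, astrocytes and macrophages moved with the injury groups in the hippocampus at 3 dpi. The 10 microglia markers summed to between 330.3 and 354.8 CPM in Sham + VH and 664.9 and 1037 in TBI + VH, and with candesartan to between 321.1 and 362.5 in Sham + CD and 776.4 and 1123 in TBI + CD, and 10 of 10 were called higher in each injury comparison. The 8 astrocyte markers summed to between 4695 and 5489 CPM in Sham + VH and 8202 and 10170 in TBI + VH, with 6 called. The 10 markers of infiltrating and border macrophages summed to between 5.07 and 8.49 CPM in Sham + VH, 9.57 and 21.5 in TBI + VH, and 12.5 and 33.4 in TBI + CD, with 4 and 7 of 9 tested called higher under vehicle and candesartan, and Cd5l at 0 in both sham groups. In the hippocampus at 3 dpi T cell markers summed to at most 3.54 CPM in any library, with Trac at 0 in all 4 groups, and neutrophil markers to at most 4.74 CPM. The part of these cells in the results was not tested.

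Away from the hippocampus few of the genes were called. In the thalamus at 3 dpi 37 genes were tested, all but Zbp1. TBI + VH against Sham + VH gave 0 called genes by edgeR, beside 0.298% of all genes called higher, 0 by DESeq2 and 3 with an unadjusted p under 0.05, beside 3.84% of all genes. The median log2 fold change of the genes was 0.20, against 0.41 in TBI + CD against Sham + VH and 0.36 in TBI + CD against Sham + CD, and microglia markers, 7 of 10 called, summed to between 273.5 and 316.8 CPM in Sham + VH and 366.6 and 493.3 in TBI + VH. An unadjusted p under 0.05 by edgeR was found for 19 genes in TBI + CD against Sham + VH, beside 7.14% of all genes. Against Sham + CD it was found for 18, beside 5.97%. In each, 34 of the 37 fold changes were positive.

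Irf7 was the gene called in TBI + CD against Sham + VH, beside 0.418% of all genes called higher. It was read at 1.31, 1.45, 1.19 and 1.3 CPM in Sham + VH and at 3.34, 2.31, 3.06 and 2.27 CPM in TBI + CD (log2 fold change 1.06 ± 0.22, adjusted p = 0.0402). TBI + VH was read at 2.21, 1.6, 1.66 and 1.35 CPM and Sham + CD at 2.22, 1.39, 2.12 and 1.19 CPM, and both overlapped Sham + VH.

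Bst2 was the gene called in TBI + CD against Sham + CD, beside 0.167% of all genes called higher. It was read at 1.38, 1.18, 1.79 and 1.19 CPM in Sham + CD and at 3.4, 2.47, 2.68 and 2.64 CPM in TBI + CD (a fold of 2.01, adjusted p = 0.0419). Its values in Sham + VH were 1.31, 1.64, 1.63 and 1.66 CPM and in TBI + VH 3.05, 2.11, 2.1 and 1.73 CPM, so that every injured library of either treatment was above its shams. Both calls were at the edge of the threshold, and neither gene was called when the fit held the 8 libraries compared alone.

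In the hypothalamus 0 genes were called at 3 dpi (35 tested) in any of the injury comparisons by edgeR or DESeq2, beside 0% of all genes called higher. In TBI + VH against Sham + VH, TBI + CD against Sham + VH and TBI + CD against Sham + CD, 3, 4 and 5 genes had an unadjusted p under 0.05, as did 3.40%, 3.85% and 5.52% of all genes. The medians were 0.24, 0.24 and 0.21 on the log2 scale. Gbp2 was at 1.81 to 4.91 CPM in Sham + VH and at 4.57 to 6.54 CPM in TBI + VH, which overlapped, with a log2 fold change of 0.65 and a 95% interval from 0.01 to 1.29. Microglia markers spanned 268.7 to 313.8 CPM in Sham + VH and 297.9 to 320.5 in TBI + VH, with 0 of 10 called.

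**Figure D4:**
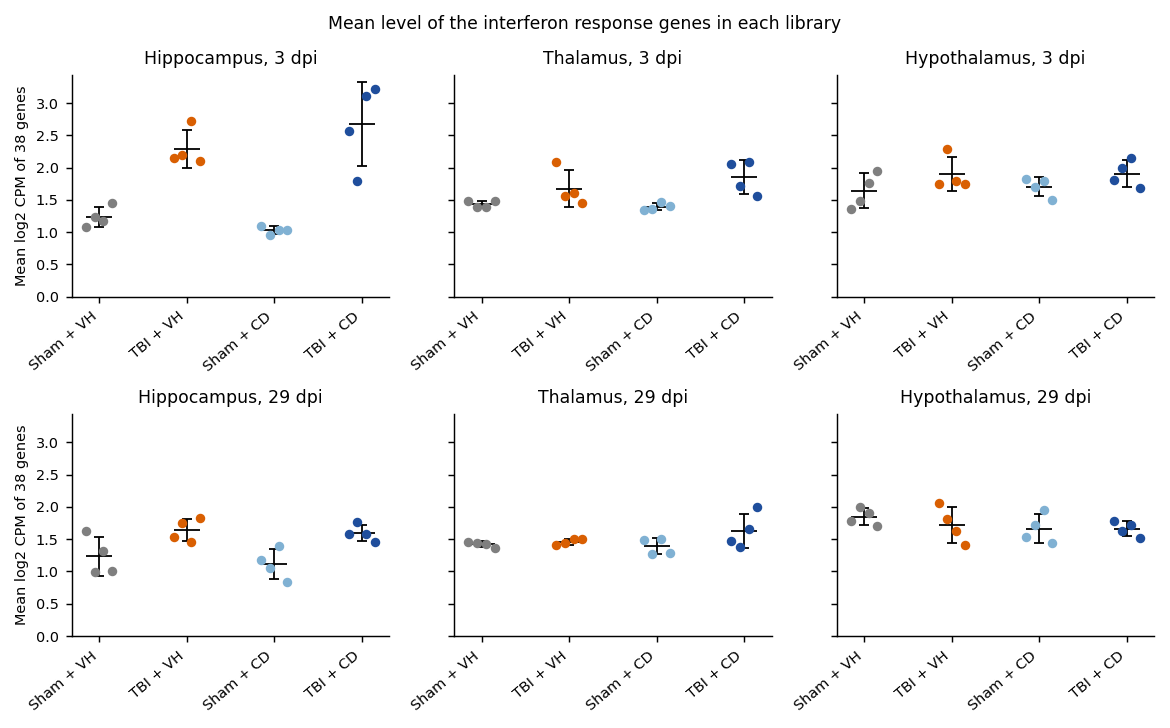
Mean log2 CPM over the 38 genes in each of the 96 libraries (points), by group in each region and time, with the mean (dash) and SD (bars) of 4 libraries. Injured and sham libraries do not overlap in the hippocampus at 3 dpi (Sham + VH averages 1.23 and TBI + VH 2.29), and TBI + CD also lies above both sham groups in the thalamus at 3 dpi (lowest 1.55 against at most 1.49) and above Sham + CD in the hippocampus at 29 dpi (lowest 1.45 against at most 1.39).

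A test of whether the vehicle injury difference itself was larger in the hippocampus than in another region at 3 dpi was made on all regions together. Against the thalamus it was larger for 3 of 38 genes, beside 3.51% of all genes, and against the hypothalamus for 8 of 38, beside 4.92%; 0 genes were called smaller. The medians over the genes were 0.70 and 0.65 on the log2 scale. Ifitm3 (1.26 ± 0.35), Gbp2 (1.71 ± 0.37) and Gbp3 (1.67 ± 0.30) were called against the thalamus. There Gbp2 was at 2.58, 2.89, 2.69 and 3.94 CPM in Sham + VH and 4.37, 3.91, 2.62 and 2.19 CPM in TBI + VH, Gbp3 at 3.64, 3.04, 3.65 and 3.75 and at 5.02, 2.99, 3.91 and 3.29 CPM, and Ifitm3 at 7.29, 6.39, 6.16 and 5.32 and at 11.6, 10.1, 5.24 and 5.18 CPM, all overlapping. The same genes were called against the hypothalamus, with Irf9, Dhx58, Mx1, Dtx3l and Ifi27l2a. Regions may come from the same mice, which the labels do not say, and the fit took libraries as independent.

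At 29 dpi few of the genes were called in the hippocampus. Of 36 genes tested, all but Mx1 and Zbp1, edgeR called 0 in TBI + VH against Sham + VH, beside 0.523% of all genes called higher. DESeq2 called 1 (Gbp2), and 8 genes had an unadjusted p under 0.05, beside 7.98% of all genes. In TBI + CD against Sham + CD 17 genes had an unadjusted p under 0.05 by edgeR, beside 9.70% of all genes. There 35 of the 36 fold changes were positive, with a median of 0.47 on the log2 scale. Gbp2 was read at 3.87, 1.62, 3.35 and 2.41 CPM in Sham + VH and at 5.28, 4.9, 6.54 and 7.18 CPM in TBI + VH, without overlap (log2 fold change 1.01 ± 0.23, adjusted p = 0.0559). It was the gene called in TBI + CD against Sham + CD, beside 0.351% of all genes called higher, at 4.93, 5.95, 5.7 and 3.46 CPM against 3.05, 1.95, 1.91 and 2.34 CPM (1.19 ± 0.23, adjusted p = 0.0282). The call was lost with a replicate block and without any single library of Sham + CD replicates 2, 3 and 4 or TBI + CD replicates 1, 2 and 3. Beside it 2 of 10 microglia markers were called in each of these comparisons, and their sums were 315.6 to 360.7 CPM in Sham + VH and 402.8 to 438.1 in TBI + VH.

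Irf7 at 29 dpi was read at 1.8, 1.5, 1.2 and 1.54 CPM in Sham + VH and at 2.01, 1.92, 1.21 and 1.73 CPM in TBI + VH, and with candesartan at 1.22, 1.4, 1.45 and 0.806 CPM in Sham + CD and at 1.63, 2.9, 2.51 and 1.48 CPM in TBI + CD. Isg15 was read at 0.786, 0.999, 0.602 and 0.482 CPM, at 0.923, 0.962, 0.944 and 0.792, at 0.916, 0.456, 1 and 0.499, and at 0.686, 0.85, 0.521 and 0.798 in the same order of groups. Both genes overlapped between Sham + VH and TBI + VH, with log2 fold changes of 0.20 (95% interval from -0.35 to 0.75) and 0.35 (from -0.27 to 0.97). Under candesartan every injured library of Irf7 was above every sham one, by little at the boundary (log2 fold change 0.80, adjusted p = 0.225), and Isg15 overlapped.

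Usp18 was at 0.754, 0.25, 0.628 and 0.289 CPM in Sham + VH and at 0.755, 0.875, 0.742 and 0.909 CPM in TBI + VH, and with candesartan at 0.153, 0.261, 0.727 and 0.23 CPM in Sham + CD and at 0.815, 0.997, 0.716 and 0.456 CPM in TBI + CD. Ifit3 was at 6.39, 2.87, 5.73 and 6.07 CPM, at 5.79, 6.82, 7.56 and 10.5, at 3.36, 4.07, 4.36 and 5.03, and at 6.56, 7.71, 5.27 and 7.07 in the same order. Ifit3 did not overlap between Sham + CD and TBI + CD (log2 fold change 0.63, adjusted p = 0.268), whereas Usp18 overlapped.

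Ifi27l2a was at 0.655, 0, 0.209 and 0.193 CPM in Sham + VH and at 0.503, 0.7, 0.405 and 0.674 CPM in TBI + VH, and with candesartan at 0.153, 0.195, 0.394 and 0.154 CPM in Sham + CD and at 0.515, 0.967, 0.488 and 0.608 CPM in TBI + CD. Bst2 was at 4.32, 1.12, 1.05 and 3.85 CPM, at 1.85, 4.81, 2.43 and 3.28, at 1.07, 1.63, 2.97 and 1.69, and at 3.78, 3.69, 2.47 and 2.66 in the same order. The Sham + VH libraries high in Bst2, replicates 1 and 4, had choroid plexus sums of 7634 and 4313 CPM, and replicates 2 and 3 had 226.7 and 86.4.

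Cxcl10 was at 0.328, 0.25, 0.209 and 0.289 CPM in Sham + VH and at 0.21, 0.7, 0.337 and 2.2 CPM in TBI + VH, and with candesartan at 0.611, 0.13, 0.152 and 0.115 CPM in Sham + CD and at 0.472, 0.234, 0.358 and 0.152 CPM in TBI + CD, with a single TBI + VH library standing high. Tested directly, the vehicle injury difference in the hippocampus was larger at 3 than at 29 dpi for 1 of 38 genes, Gbp3, a share under the 3.07% of all genes (difference 1.20 ± 0.33, adjusted p = 0.0378), with 16 genes at an unadjusted p under 0.05, beside 12.1% of all genes, and a median of 0.70. In the same test 10 of 10 microglia markers (Fcrls by 2.14, Aif1 by 1.44, Csf1r by 0.98), 3 of 8 astrocyte markers (Gfap by 2.22, with Aqp4 and Aldh1l1) and 1 of 9 macrophage markers (Ccr2 by 4.30) were called larger at 3 dpi, and their part in the result was not tested. The call of Gbp3 was lost when any of 10 of the 16 libraries was left out, namely Sham + VH replicates 1 and 2 and TBI + VH replicates 1 and 3 at 3 dpi, and Sham + VH replicates 1 and 3 and TBI + VH replicates 1 to 4 at 29 dpi. The count ran from 0 to 5 over libraries left out, and DESeq2 called 3. Gbp3 at 29 dpi was at 3.37, 2.5, 4.08 and 2.41 CPM in Sham + VH and 4.7, 4.55, 5.13 and 5.28 in TBI + VH.

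In the thalamus and hypothalamus at 29 dpi edgeR called 0 genes of 35 and 36 tested in any comparison and DESeq2 0 of those with an adjusted p, which it did not give for 9 genes in TBI + CD against Sham + VH in the thalamus, beside 0% of all genes called higher in the thalamus and 0.00583% in TBI + VH against Sham + VH in the hypothalamus. Those with an unadjusted p under 0.05 numbered 1 and 0 in TBI + VH against Sham + VH, and 6 and 3 in TBI + CD against Sham + CD, beside 2.47% and 2.79%, and 9.13% and 6.43%, of all genes. Candesartan in sham or in injured mice gave 0 called genes in every region and time by edgeR. DESeq2 called 0 of those with an adjusted p, which it did not give for 24 genes in Sham + CD against Sham + VH in the thalamus at 3 dpi and 4 in the hypothalamus at 29 dpi, and 0 to 4 genes had an unadjusted p under 0.05 in these comparisons outside the hippocampus at 3 dpi, beside 2.05% to 13.2% of all genes.

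The uninjured regions differed in the basal level of some of the genes, here compared in Sham + VH on CPM scaled over all regions. At 3 dpi the hippocampus was higher than the thalamus for 2 genes and lower for 4, beside 19.4% and 21.5% of all genes, and higher than the hypothalamus for 2 and lower for 8, beside 23.2% and 23.5%. The thalamus was higher than the hypothalamus for 1 and lower for 6, beside 14.7% and 13.9%. All these shares were near or under those of genes in general.

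Ifit2 was at 5.82, 5.99, 7.51 and 7.85 CPM in the hippocampus, with 16.3, 20.7, 18.7 and 20 for the thalamus and 13.9, 16.3, 14.7 and 25 for the hypothalamus, so that the hippocampus lay below both (-1.48 ± 0.17 and -1.36 ± 0.16). Oasl2 was at 2.68, 2.71, 3.69 and 2.56 CPM, 2.61, 3.31, 2.58 and 3.67, and 4.47, 6.2, 7.15 and 6.74 in the same order of regions, with the hypothalamus above both. Cmpk2 was at 19.2, 19.8, 24.7 and 22.8 CPM, 26.8, 22.9, 29.3 and 29.7, and 30.9, 33.8, 33.4 and 37.2, and was called lower in the hippocampus than in either region.

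Trim25 was at 5.27, 6.88, 5.18 and 6.76 CPM in the hippocampus, with 5.88, 7.05, 5.7 and 6.3 for the thalamus and 7.6, 7.87, 12.1 and 14.9 for the hypothalamus. Herc6 was at 4.63, 5.11, 4.21 and 5.48 CPM, 8.62, 8.74, 8.1 and 8.33, and 5.56, 7.16, 6.88 and 9.8 in the same order. Both were called lower in the hippocampus than in the hypothalamus, and Herc6, a ligase for ISG15 in the mouse, also lower than in the thalamus (-0.80 ± 0.17).

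Stat2 ran against this order, at 35.2, 35.2, 33.1 and 35.5 CPM in the hippocampus, with 38.4, 43.6, 33.9 and 36.9 for the thalamus and 26.1, 26.4, 28.2 and 26.2 for the hypothalamus, where it was lowest. Dtx3l was at 5.52, 4.4, 5.97 and 5.36 CPM, 2.73, 3.31, 3.43 and 3.11, and 3.83, 4.56, 4.7 and 5.2, lowest in the thalamus. Lgals3bp was at 33.9, 31.5, 14.4 and 32.7 CPM, 25.1, 20.9, 26.3 and 22.4, and 31.8, 35.5, 35.2 and 37.5, with the thalamus called lower than the hypothalamus (-0.57 ± 0.18).

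Bst2 was called higher in the hippocampus than in the thalamus (1.40 ± 0.31) and the hypothalamus (1.17 ± 0.30), at 5.44, 4.53, 1.58 and 5.09 CPM against 1.33, 1.66, 1.65 and 1.67 and 1.34, 1.57, 2.07 and 2.4. Hippocampal replicate 3, with the low choroid plexus sum, lay within the range of the other regions. In the thalamus replicates 1 and 3, with choroid plexus sums of 1180 and 3528 CPM, had Bst2 at 1.33 and 1.65 CPM. Thalamic replicates 2 and 4, with sums of 90.8 and 55.3 CPM, had it at 1.66 and 1.67. The part of choroid plexus content in these levels was not tested.

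At 29 dpi some of these calls were made again and others were not. Lower in the hippocampus than in the hypothalamus were 11 genes, beside 22.8% of all genes, and 7 of them had also been called at 3 dpi. How many of all genes were called at both times was not counted for any pair of regions. Ifit2 was 9.26 ± 0.88 CPM (SD, n = 4) in the hippocampus, with 18.5 ± 2.9 for the thalamus and 17.4 ± 1.8 for the hypothalamus. Oasl2 was 2.95 ± 0.40, 3.14 ± 1.1 and 7.33 ± 0.74 CPM. Against the thalamus, Bst2 and Dtx3l were again the 2 genes called higher, beside 19.9% of all genes, and Herc6, Ifit2 and Xaf1 were lower, beside 19.4%, while Cmpk2 and Mx2 were not called. Stat2 and Bst2, called higher in the hippocampus than in the hypothalamus at 3 dpi, had log2 differences of 0.27 and 0.61 at 29 dpi and were not called, when Dtx3l was called, beside 22.2% of all genes. Herc6 was also no longer called there. The thalamus was higher than the hypothalamus for 2 genes and lower for 11, beside 15.6% and 17.4%, of which 1 and 5 had been called at 3 dpi. Without Sham + VH replicate 1 of the hippocampus the difference in Bst2 from the thalamus was 0.66 and was not called.

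**Figure D5:**
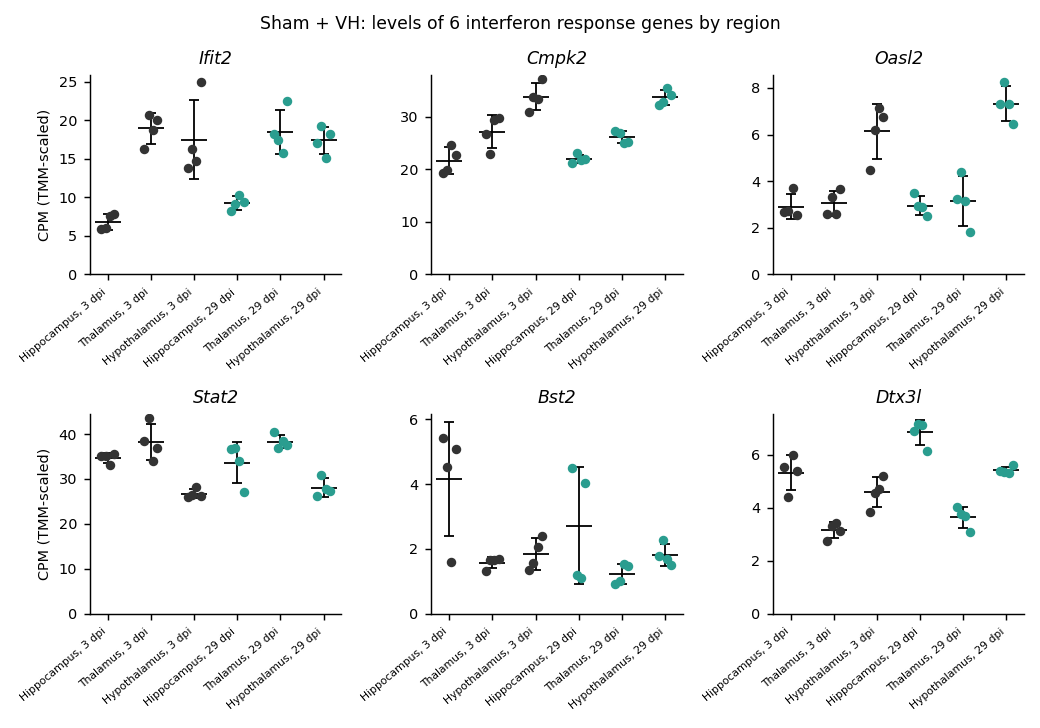
CPM of 6 genes in Sham + VH libraries (points) of each region at 3 dpi (black) and 29 dpi (green), with the mean (dash) and SD (bars) of 4 libraries. Ifit2 is lowest in the hippocampus, Oasl2 highest in the hypothalamus, and Bst2 falls into high and low libraries within the hippocampus at both times.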

How the data were processed

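Samples were grouped from their labels by region, day and arm (24 groups of 4). Per the labels and the study's methods, the authors sequenced poly(A) mRNA as paired 75-base reads, aligned it to mm10 with MapSplice and counted reads per gene with HTSeq 0.9.1, and they deposited raw counts in a table for each time point. The annotation, strand setting and handling of reads with several matches are not given in the sources used here, so members of near-identical families (Ifit, Gbp, Oas, Trim30, Ifi27l2) and overlapping genes carry uncertainty. The authors chose the 4 samples of highest RNA quality in each group. Where regions came from the same mice is not stated in the labels, and p-values measure the spread between libraries.

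Low-count genes were removed with filterByExpr, libraries were scaled by TMM, and each set of 16 libraries was fitted with edgeR 4.0.16 (R 4.3.3) and tested by its quasi-likelihood method, with p-values adjusted by Benjamini-Hochberg across every gene tested. SEs are the log2 fold change divided by the square root of F. Comparisons between regions, and between days, were fitted on all libraries concerned, so their CPM differ slightly from those within a set, and time also separates the tables. Log2 CPM used a prior count of 2. DESeq2 1.42.0, other scaling, no filter, a replicate block, a choroid plexus covariate (for the hippocampus alone), fits of 8 libraries and leaving out each library were the alternatives.

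The members and lists were chosen with earlier results of these data known. Single-library values were given for the 4 called genes with the largest change and a mean of at least 1 CPM in a comparison, for all called genes where there were 5 or fewer, for Irf7, Isg15, Usp18, Ifit3, Ifi27l2a, Bst2, Cxcl10 and Gbp2 in the hippocampus, and for called genes of the receptor and signalling lists. A gene that the rule names is not reported here. Others, such as Mx1, Rsad2, Lgals3bp, Stat2, Cmpk2 and the genes compared between regions, were chosen after their values were seen. Counts were simulated for TBI + VH against Sham + VH in the hippocampus at 3 dpi (16607 genes). The test recovered 40 of 50 genes changed by 0.6 on the log2 scale and 49 of 50 changed by 1. It also recovered 50 of 50 changed by 2 and 47 of 50 changed by -1, with 6 false calls. Recovery was not counted by level of expression. For genes with few counts, such as Isg15, Zbp1 and Cxcl10 in sham libraries, it was not tested separately.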

Additional observations from a re-analysis of the deposited data

Results flagged for a closer look

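A library was singled out where the highest or lowest of 4 values lay far from the other three, by Dixon's test at the 95% level, in 7 of 112 groups of values tested. Chance alone singles out about 1 in 20 groups. In the hippocampus at 3 dpi these were TBI + VH replicate 3 for the mean log2 CPM over the 38 genes (2.724), TBI + VH replicate 2 for Cxcl10 (2.769 CPM), Sham + CD replicate 2 for Isg15 (0.5613 CPM, the lowest of 4 close values) and Sham + CD replicate 4 for Zbp1 (0.2556 CPM). The others were TBI + VH replicate 2 of the hypothalamus at 3 dpi for the mean log2 CPM (2.294), Sham + VH replicate 1 of the thalamus at 3 dpi for Bst2 (1.31 CPM, the lowest) and Sham + CD replicate 1 of the hippocampus at 29 dpi for Cxcl10 (0.6106 CPM).

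The vehicle injury difference at 3 dpi was larger in the hippocampus than in the thalamus, on the log2 scale and by edgeR's test of the difference itself, for Ifitm3 (by 1.257, adjusted p = 0.0279), Gbp2 (1.711, adjusted p = 0.00288) and Gbp3 (1.667, adjusted p = 0.000227). Against the hypothalamus it was larger for Irf9 (0.5411, adjusted p = 0.0389), Dhx58 (1.511, adjusted p = 0.0106), Mx1 (4.159, adjusted p = 0.00556), Ifitm3 (1.172, adjusted p = 0.031), Gbp2 (1.176, adjusted p = 0.0436), Gbp3 (1.433, adjusted p = 0.000805), Dtx3l (0.6659, adjusted p = 0.00645) and Ifi27l2a (2.759, adjusted p = 0.00587). In the hippocampus it was larger at 3 than at 29 dpi for Gbp3 (1.197, adjusted p = 0.0378).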

How the results depend on the processing

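Of 1007 counts of called genes under alternatives, over 45 comparisons, 931 stayed within 1.5 times the reported count, and of 3744 fold changes of single genes 248 lost the call and 0 changed sign. Most of the 45 comparisons had 0 called genes reported, and a count that stayed at 0 was scored as within that range. In TBI + VH against Sham + VH in the hippocampus at 3 dpi (23 reported), 5 genes were called with the choroid plexus covariate, 25 by DESeq2 and 22 with a replicate block, and 13 to 28 with a library left out (13 without TBI + VH replicate 3, 28 without TBI + CD replicate 2). Against Sham + CD libraries in place of Sham + VH, an alternative chosen after seeing the data, 31 were called. DESeq2 called 3 genes in each thalamic comparison of TBI + CD at 3 dpi (1 reported), 1 in TBI + VH against Sham + VH (0 reported) and 2 in TBI + CD against Sham + CD (1 reported) in the hippocampus at 29 dpi, 5 for the hippocampus minus thalamus difference (3 reported) and 3 for the 3 minus 29 dpi difference (1 reported). Fits of the 8 libraries compared gave 0 in both thalamic comparisons, and TBI + CD against Sham + CD there gave 0 with no filter. The choroid plexus covariate gave 2 in TBI + VH against Sham + VH in the hippocampus at 29 dpi. The cause of these moves was not tested.

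Leaving out each library gave 0 to 2 called genes in Sham + CD against Sham + VH (2 without Sham + VH replicate 3) and 0 to 1 for the interaction in the hippocampus at 3 dpi. It gave 0 to 3 and 0 to 2 in the thalamus at 3 dpi for TBI + CD against Sham + VH and Sham + CD, 0 to 1 and 0 to 2 in the hippocampus at 29 dpi for TBI + VH against Sham + VH and TBI + CD against Sham + CD, and 0 to 5 for the 3 minus 29 dpi difference. It gave 2 to 7 and 5 to 10 for the hippocampus minus thalamus and hypothalamus differences. Between Sham + VH regions at 29 dpi it gave 2 to 5 for hippocampus against thalamus and 8 to 14 for thalamus against hypothalamus.

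Replicate numbers are not stated to mark a shared mouse or day. Of 24 same-numbered pairs per set, 4 to 15 correlated above 0.1 in their deviations from group means. They were most alike in the thalamus at 3 dpi (15 pairs, median 0.129 against -0.0264 for other pairs, 10 of 16 libraries closest to their own number). In the hippocampus at 29 dpi 12 pairs did so. With the replicate block 2 genes were called in TBI + CD against Sham + CD in the thalamus at 3 dpi and 0 in the hippocampus at 29 dpi. Genes with few counts, such as Zbp1, Mx1 and Cxcl10 in sham libraries, have wide intervals.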
